A study of Mus musculus with 4 samples.

Results

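The glycine cleavage and one-carbon metabolism genes described here are 10 genes taken by symbol from a table of 22063 gene identifiers: Gcsh, Gldc, Amt, Dld, Shmt1, Shmt2, Mthfd1, Mthfd2, Phgdh and Psat1. All 10 matched 1 identifier each. The set was chosen by a measured value: Gcsh had been called higher after norepinephrine in an earlier reading of these same libraries, and the other 9 genes are its partners in the pathway. Differences between norepinephrine and vehicle libraries are therefore given for these genes as a description.

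RNA was sequenced from C22, an immortalized mouse lung Club cell line of wild type genotype grown in DMEM with 2% fetal bovine serum. The 2 NE libraries came from C22 cells given 10 µM norepinephrine (NE), the transmitter of sympathetic nerves, for 3 h, and the 2 vehicle libraries from control cells. The titles and the treatment protocol give these as C22 cells kept with vehicle for 3 h, whereas the series' design text calls them untreated, and which holds cannot be settled from the files. The study sets this in the context of contacts between TH-positive nerve fibres and lung epithelium in mice.

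Every library came from the same cell line, and no label says whether replicates were separate cultures, so the p-values measure the spread between libraries, which may be technical. Total counts were 15657173 and 18491334 in NE libraries, against 14820258 and 14783176 in vehicle libraries. Of 8 Club cell markers, 3 had 0 counts in every library (Scgb3a1, Scgb3a2 and Cyp2f2), Scgb1a1, the classical secretory product, had 2 counts in all, and 3 passed the filter on low counts. The mesenchymal list, led by Vim and Col1a1, passed the filter for 4 of 4 genes. Its summed level was 3846 and 3887 CPM (reads of a gene relative to its library's total) in NE libraries, against 4541 and 3899 CPM in vehicle libraries. The Club cell list summed to 1811 and 1871 CPM in NE libraries, against 1967 and 1808 CPM in vehicle libraries. Nearly all of that sum came from Krt8, Aldh1a1 and Ephx1, at means of 900.2, 821.5 and 142.5 CPM over the 4 libraries. Of 9 other epithelial markers, 2 passed the filter, Krt18 at a mean of 607.0 CPM and Krt14 at 9.69 CPM. Epcam had 0 counts and Cdh1 18 in all. No marker of the Club, other epithelial, mesenchymal, endothelial or leukocyte lists was called as changed.

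The glycine cleavage system is a mitochondrial enzyme complex that splits glycine into carbon dioxide, ammonia and a methylene group carried by tetrahydrofolate. The decarboxylase Gldc (P protein) passes what remains of glycine to a lipoyl arm on Gcsh (H protein), Amt (T protein) moves the methylene group to folate, and Dld (L protein) reoxidizes the arm. Serine is made from a glycolytic intermediate by Phgdh, Psat1 and the phosphatase Psph, and the hydroxymethyltransferases Shmt1 in the cytosol and Shmt2 in mitochondria convert it to glycine and a folate-bound methylene group. Mthfd1 in the cytosol and Mthfd2 in mitochondria then convert this group into the forms used for purines, thymidylate and methionine. The adrenergic receptors that bind norepinephrine signal through G proteins.

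Promoter stretches were compared to see what these genes share in sequence. RefSeq's table for mouse build GRCm38.p6 held 11 windows for the 10 genes, with 2 for Psat1. The counts were made on another build, GRCm39, so these positions were used for sequence only. The stretches shown are those of Gcsh, Phgdh and Psat1, the abundant genes with the largest differences in level after NE, and Shmt2, the member with none of the motif shared by the others. Each runs 5′ to 3′ on the gene's strand. Bases inside annotated exons were left out, and capitals mark CCAAT or its reverse complement ATTGG.
Gcsh, chr8:116993538-116993748, minus strand, 211 bases: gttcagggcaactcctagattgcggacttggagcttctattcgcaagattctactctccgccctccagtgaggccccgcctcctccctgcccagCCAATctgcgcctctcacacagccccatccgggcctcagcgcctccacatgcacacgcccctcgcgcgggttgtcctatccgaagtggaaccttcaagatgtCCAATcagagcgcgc
Phgdh, chr3:98339991-98340219, minus strand, 229 bases: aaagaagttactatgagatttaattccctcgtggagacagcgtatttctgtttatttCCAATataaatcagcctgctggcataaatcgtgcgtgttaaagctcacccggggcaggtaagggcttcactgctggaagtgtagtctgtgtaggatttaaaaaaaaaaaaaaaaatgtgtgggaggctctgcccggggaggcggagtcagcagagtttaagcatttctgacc
Psat1, chr19:15925060-15925309, minus strand, 250 bases: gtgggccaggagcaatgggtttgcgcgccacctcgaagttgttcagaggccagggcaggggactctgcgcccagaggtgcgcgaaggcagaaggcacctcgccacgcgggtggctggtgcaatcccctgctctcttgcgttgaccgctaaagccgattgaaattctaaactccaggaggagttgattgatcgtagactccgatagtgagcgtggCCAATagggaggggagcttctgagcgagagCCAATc
Shmt2, chr10:127522445-127522694, minus strand, 250 bases: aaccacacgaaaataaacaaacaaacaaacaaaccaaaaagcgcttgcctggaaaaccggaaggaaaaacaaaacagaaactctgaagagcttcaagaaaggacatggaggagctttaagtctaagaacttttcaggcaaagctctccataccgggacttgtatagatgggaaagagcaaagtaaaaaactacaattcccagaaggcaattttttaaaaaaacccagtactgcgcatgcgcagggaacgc

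The CCAAT box, read on both strands in the full 250 bases before each annotated start, was found in 9 of 11 windows, and in 9 of the 10 genes. Over all RefSeq windows of this length, 33.8% of 32851 held it, and among genes tested here that had a window, 41.9% of 9087 did. In Gcsh the boxes lay 156 to 152 and 54 to 50 bases before the start, both on the gene's strand. Phgdh had boxes at 193 to 189 and 23 to 19 bases. The nearer crosses the edge of an exon annotated in GENCODE M21 and is not printed in full. Psat1 had boxes at 36 to 32 and 6 to 2 bases before the start of the window shown, and its other window had none.

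The GC box, GGGCGG on either strand, was in 6 of 11 windows, against 32.7% of all windows. For it and the motifs below, the share among genes tested here, which was higher for CCAAT, was not taken. The cAMP response element TGACGTCA was in 0 of 11 windows (1.55% of all windows), and its shorter form TGACG was in 1, that of Shmt1 (17.8% of all windows). TGATGNAA, the C/EBP-ATF element through which Atf4 acts, was in 0 of 11 windows (3.45% of all), as was the E box CACGTG (6.02% of all). These are matches of letters in short windows, and binding was not measured.

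**Figure D1:**
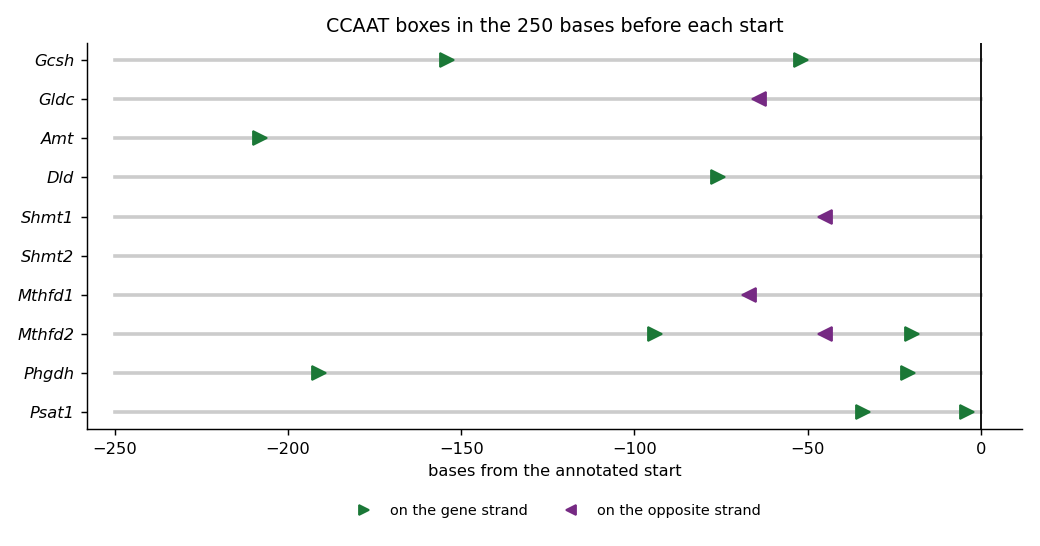
Positions of CCAAT boxes in the 250 bases before the annotated start of each gene (x axis, bases from the start), with right-pointing triangles for boxes on the gene's strand and left-pointing ones for the opposite strand. For Psat1 the boxes are those of the window printed above. Every gene but Shmt2 has at least 1 box, and Mthfd2 has 3.

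Per length of transcript, the serine synthesis genes were the most abundant of the set, and Gldc and Amt of the cleavage system the least. Levels were set as CPM per kilobase (kb) of the longest annotated transcript, as mean ± SD over the 4 libraries. Phgdh reached 183.4 ± 17.1 CPM per kb and Psat1 174.6 ± 14.0, and their ranges over libraries overlapped. Shmt2 followed at 96.8 ± 2.41 CPM per kb, above all lower-ranked genes in every library. Mthfd2 at 61.7 ± 3.23 and Dld at 56.8 ± 3.81 CPM per kb overlapped, as did Gcsh at 43.8 ± 6.86 and Mthfd1 at 43.0 ± 2.25. Shmt1 stood at 24.3 ± 0.341 CPM per kb.

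Gldc and Amt were of another order of magnitude. Amt had 0.455 ± 0.229 CPM per kb and Gldc 0.289 ± 0.0523, with overlapping ranges. Both are enzymes used by glycine cleavage alone, whereas Dld also serves the pyruvate, 2-oxoglutarate and branched-chain dehydrogenases. The level of Gcsh per kb was 151 times that of Gldc, between 118 and 203 times in single libraries, and 96.2 times that of Amt, between 57.1 and 226.7 times. Per kb of coding sequence it was 349.7 times that of Gldc and 158.0 times that of Amt. In CPM, Gcsh lay at the 65.1st percentile of the 11419 genes tested, while Gldc lay at the 3.50th and Amt at the 2.78th. Psat1 and Phgdh lay at the 97.5th and 96.0th.

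The order at the top and in the middle depended on the length used. With coding length Psat1 came before Phgdh, and Gcsh took place 4 with 123.9 CPM per kb. With the median transcript length Psat1 also came before Phgdh, and Gcsh took place 7. Gcsh stood at 0.771 times the level of Dld per kb of the longest transcript, and at 1.31 times per kb of coding sequence. Amt and Gldc came last under each length, in places 9 and 10. The 8 Phgdh pseudogenes annotated in GENCODE M21 with at least 95% identity to it over 300 bases or more have no row in the deposited table, so how their reads were counted is unknown and the level of Phgdh is uncertain. No such copy was found for the other 9 genes.

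**Figure D2:**
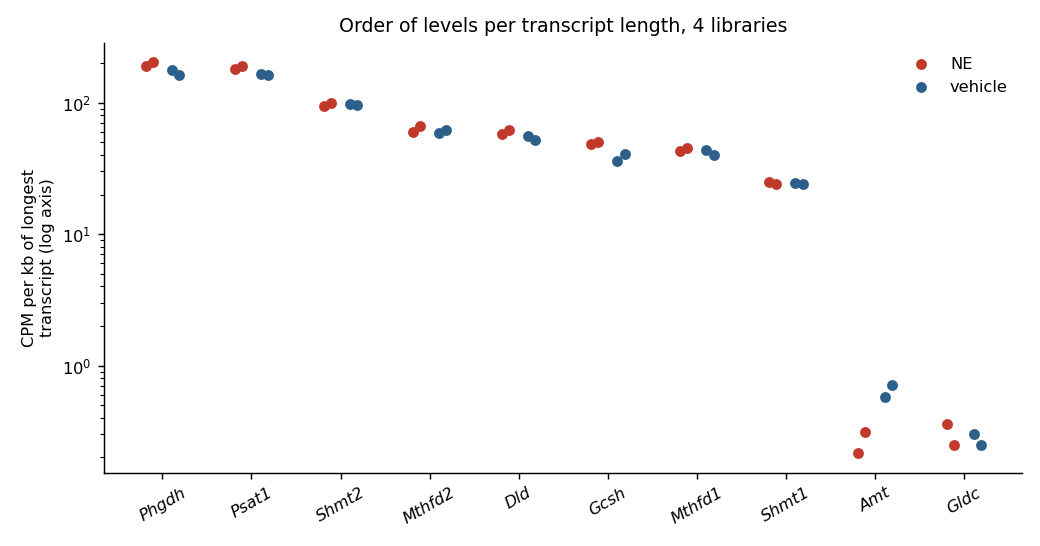
Level of each gene in CPM per kb of its longest transcript (log axis), with 1 point per library, NE left of vehicle, and genes ordered by their mean over 4 libraries. Phgdh and Psat1 lie highest, 6 genes lie between 23.9 and 99.8 CPM per kb, and Amt and Gldc lie below 0.710.

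All 10 genes passed the filter on low counts. Of them, 1 was called as changed at an adjusted p under 0.05 (edgeR quasi-likelihood test, Benjamini-Hochberg adjustment over 11419 genes), and it is the gene for which the set was chosen. Over all genes tested 1.57% were called in either direction, 0.342% higher and 1.23% lower in NE libraries. The log2 fold change, NE over vehicle, was positive for 9 of the 10 genes and negative for 1, with a median of 0.09. Over all genes tested 5704 were positive, and the median was -0.00. In 4 of the 10 genes both NE libraries lay above both vehicle libraries, as in 24.6% of all genes tested, and in 1 both lay below, as in another 24.6%. That makes 5 of 10 without overlap, where 49.2% of all genes tested had none. In bulk RNA, a change in the number of cells making a transcript cannot be told apart from a change in transcript per cell.

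**Figure D3:**
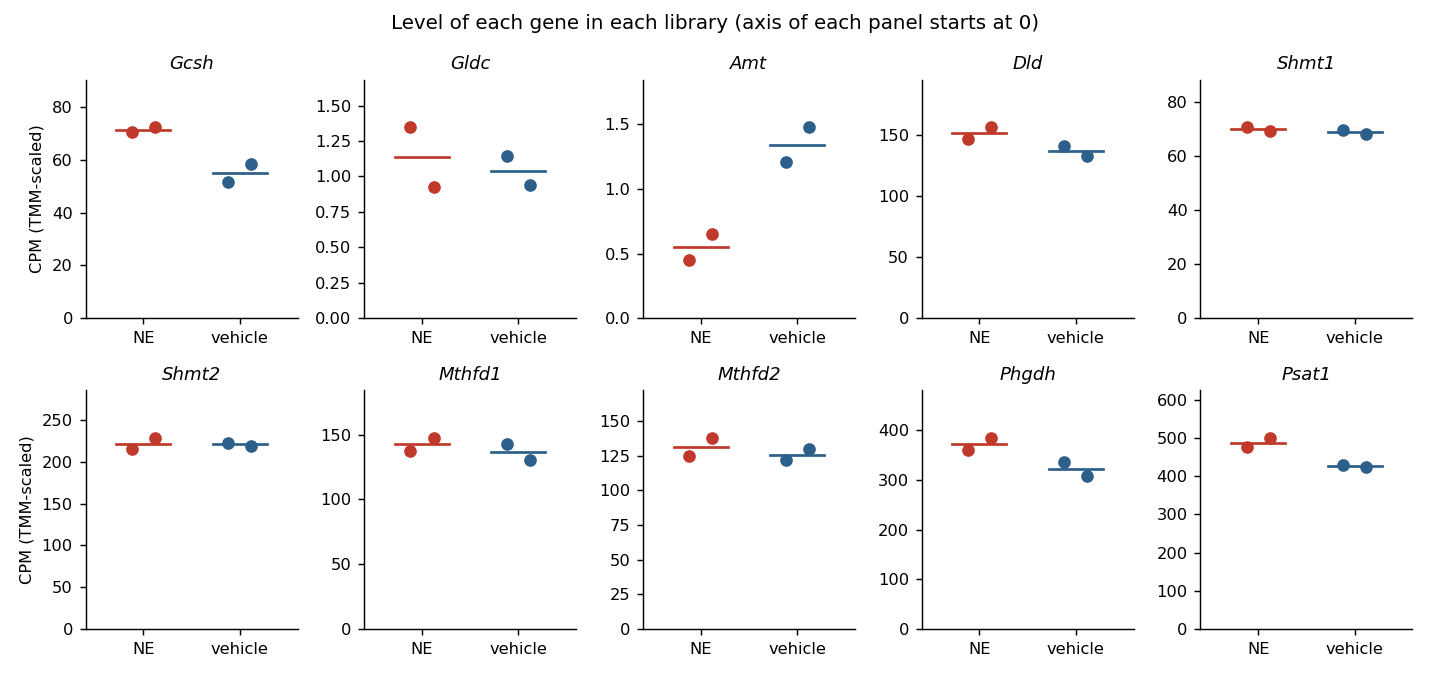
Level of each gene in CPM (y axis, linear, starting at 0 in each panel), with 1 point per library, lines at the group means, and NE left of vehicle. The NE libraries lie above the vehicle libraries for Gcsh, Dld, Phgdh and Psat1 and below them for Amt, and the groups overlap for the other 5 genes.

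Gcsh, the lipoyl carrier of the glycine cleavage system (ENSMUSG00000034424, chromosome 8), had 1100 and 1322 counts in NE libraries, against 766 and 871 in vehicle libraries. In CPM, with library totals scaled by edgeR's trimmed mean method (TMM), this was 70.5 and 72.2 in NE libraries, against 51.5 and 58.5 in vehicle libraries. The NE libraries lay close together and above both vehicle libraries, which were further apart. Gcsh averaged 71.4 ± 1.23 CPM with NE and 55.0 ± 4.94 CPM with vehicle (SD, n = 2 each). The log2 fold change was 0.38 ± 0.08 (SE; 95% interval 0.20 to 0.56), a ratio of 1.30, with an edgeR adjusted p of 0.0408.

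The call of Gcsh rested on its libraries and on the scaling, and 6 of 12 alternatives kept it. The edgeR adjusted p was 0.146 without NE replicate 1, 0.533 without NE replicate 2 and 0.105 without vehicle replicate 1. It was 0.0538 with total counts as scaling, and the DESeq2 Wald test gave an adjusted p of 0.0728. Fold changes in these libraries also went with transcript length: the 10% of genes with the shortest transcripts had a median log2 value of 0.11, and the 10% with the longest had one of -0.09. The longest Gcsh transcript has 1443 bases, at the 9.26th percentile of genes tested. Among the 475 genes within 10% of that length the median log2 fold change was 0.07, and 5.68% of them were at or above the value of Gcsh. With each library's trend on length removed, the log2 fold change of Gcsh was 0.34 and the adjusted p 0.0770. The part of length in the result was not tested further.

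By the 4 gene-centred log2 CPM values, the genes most like Gcsh among 4300 of similar level were Ostc, Arf6 and Srp54c, at root mean square distances of 0.02, 0.03 and 0.04. Ostc, a subunit of the oligosaccharyltransferase, had 129.3 and 129.9 CPM in NE libraries, against 96.4 and 106.3 CPM in vehicle libraries. Arf6, a small GTPase of membrane traffic, had 99.1 and 104.4 CPM in NE libraries, against 76.0 and 83.1 CPM in vehicle libraries. The likeness covers 4 libraries, and Gcsh was chosen for its pattern.

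Gldc, the glycine decarboxylase (ENSMUSG00000024827, chromosome 19), had 21 and 17 counts in NE libraries, against 17 and 14 in vehicle libraries. That is 1.35 and 0.929 CPM in NE libraries, against 1.14 and 0.940 CPM in vehicle libraries, and the groups overlapped. The log2 fold change of 0.11 had a 95% interval of -0.89 to 1.12, so changes in either direction within that range remain compatible with these counts. Amt, the aminomethyltransferase (ENSMUSG00000032607, chromosome 9), had 7 and 12 counts in NE libraries, against 18 and 22 in vehicle libraries. Both NE libraries lay below both vehicle libraries, on 59 counts in all. Amt averaged 0.552 ± 0.146 CPM with NE and 1.34 ± 0.189 CPM with vehicle (SD, n = 2 each), a log2 fold change of -1.26 ± 0.51 (SE) with an adjusted p of 0.220.

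Dld, the dihydrolipoamide dehydrogenase (ENSMUSG00000020664, chromosome 12), had 146.5 and 156.4 CPM in NE libraries, against 141.5 and 133.2 CPM in vehicle libraries. The groups did not overlap, though NE replicate 1 and vehicle replicate 1 lay close. The log2 fold change of Dld was 0.14 ± 0.07 (SE; 95% interval -0.01 to 0.29). Within the cleavage system, 3 of 4 genes had a positive value and Amt a negative one, and the intervals of Gldc and Dld both include 0.

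The serine hydroxymethyltransferases were nearly level between the groups. Shmt1, the cytosolic enzyme (ENSMUSG00000020534, chromosome 11), had 70.6 and 69.1 CPM in NE libraries, against 69.6 and 68.3 CPM in vehicle libraries. Shmt2, the mitochondrial enzyme (ENSMUSG00000025403, chromosome 10), had 215.4 and 228.5 CPM in NE libraries, against 222.7 and 219.6 CPM in vehicle libraries. The groups overlapped for both genes. The 95% intervals of the log2 fold change, -0.14 to 0.18 for Shmt1 and -0.14 to 0.15 for Shmt2, still hold small changes in either direction. The ratio of Shmt2 to Shmt1 counts was 3.05 and 3.31 in NE libraries, against 3.20 and 3.22 in vehicle libraries, and per kb the mitochondrial gene stood 3.99 times higher over the 4 libraries. Exons of Shmt1 overlap Smcr8 and those of Shmt2 overlap Ndufa4l2, both on the opposite strand, and without a stated strand setting their reads cannot be told apart.

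The folate enzymes Mthfd1 and Mthfd2 also overlapped between the groups. Mthfd1, which holds 3 activities of the cytosolic pathway (ENSMUSG00000021048, chromosome 12), had 137.7 and 147.3 CPM in NE libraries, against 142.6 and 130.2 CPM in vehicle libraries. Mthfd2, the mitochondrial dehydrogenase and cyclohydrolase (ENSMUSG00000005667, chromosome 6), had 125.1 and 137.7 CPM in NE libraries, against 122.3 and 129.6 CPM in vehicle libraries. Both had a log2 fold change of 0.06 with a 95% interval of -0.09 to 0.22. The ratio of Mthfd2 to Mthfd1 counts was 0.909 and 0.935 in NE libraries, against 0.858 and 0.995 in vehicle libraries, with no separation of the groups. Exons of Mthfd1 overlap the predicted gene Gm47525 on the opposite strand.

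Neither serine synthesis gene passed the adjusted threshold. In both, the NE libraries lay above the vehicle libraries, as in 24.6% of all genes tested. Phgdh, which takes the first step from 3-phosphoglycerate (ENSMUSG00000053398, chromosome 3), had 359.7 and 384.1 CPM in NE libraries, against 336.8 and 308.1 CPM in vehicle libraries. Its log2 fold change was 0.21 ± 0.07 (SE; 95% interval 0.06 to 0.35) with an edgeR adjusted p of 0.143. Over 12 alternatives the log2 value of Phgdh ran from 0.14 without vehicle replicate 2 to 0.27 without vehicle replicate 1. Psat1, the aminotransferase of the next step (ENSMUSG00000024640, chromosome 19), had 475.3 and 499.7 CPM in NE libraries, against 429.4 and 423.5 CPM in vehicle libraries. Psat1 averaged 487.5 ± 17.3 CPM with NE and 426.4 ± 4.18 CPM with vehicle (SD, n = 2 each). Its log2 fold change was 0.19 ± 0.07 (SE; 95% interval 0.05 to 0.33) with an edgeR adjusted p of 0.140.

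Counts of the serine synthesis genes were also set against those of Shmt2 in the same library. The ratio of Psat1 to Shmt2 counts was 2.21 and 2.19 in NE libraries, against 1.93 and 1.93 in vehicle libraries. The ratio of Phgdh to Shmt2 counts was 1.67 and 1.68 in NE libraries, against 1.51 and 1.40 in vehicle libraries. These ratios were formed after the values had been seen, with a gene that was nearly level between groups, and restate the differences above. Besides Gcsh, for which the set was chosen, 3 of the other 9 genes (Amt, Phgdh and Psat1) had an unadjusted p under 0.05, as did 17.3% of all genes tested. Nothing is read from this count, since the rule used the same contrast.

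**Figure D4:**
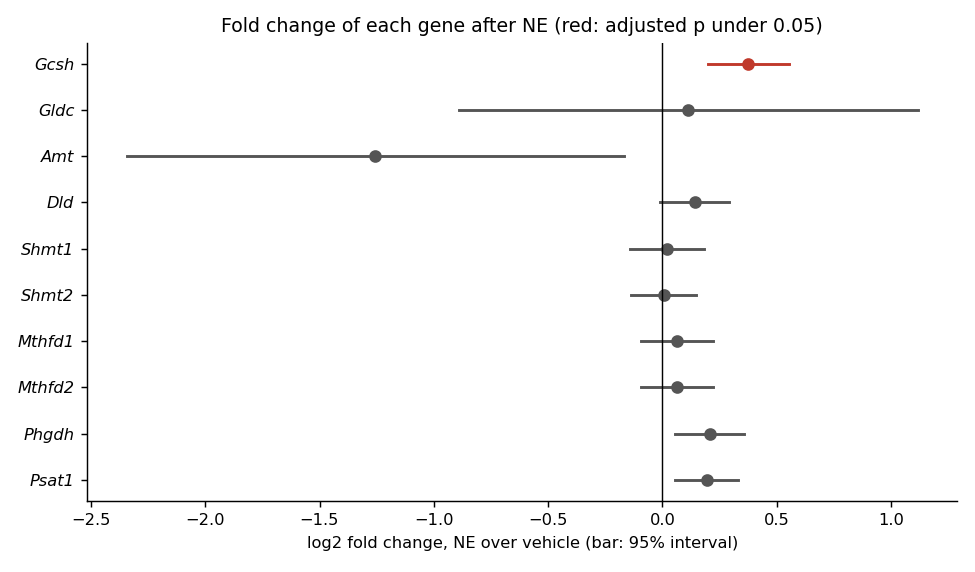
Log2 fold change of each gene, NE over vehicle (x axis), as a point with its unadjusted 95% interval. The intervals of Gcsh, Phgdh and Psat1 lie above 0 and that of Amt lies below 0, and only Gcsh, in red, had an adjusted p under 0.05.

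Around these 10 genes stand 88 further symbols of linked pathways in 10 lists, with 90 identifiers. Of these, 75 were tested and 7 had 0 counts. Among the 75, 0 were called higher and 1 lower, against 0.342% and 1.23% of all genes tested. The log2 fold change was positive for 43 and negative for 32, with a median of 0.03. At an unadjusted p under 0.05 there were 16 of 75, against 17.3% of all genes tested.

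In the list of serine synthesis and serine or glycine breakdown, 0 of 7 tested identifiers were called, and 5 were positive. Psph, the phosphatase that completes serine synthesis, had 41.7 and 47.3 CPM in NE libraries, against 38.6 and 34.6 CPM in vehicle libraries. Its log2 fold change was 0.28 ± 0.10 (SE) with an edgeR adjusted p of 0.162. Both NE libraries lay above both vehicle libraries, as in 24.6% of all genes tested. Exons of Psph overlap Cct6a on the opposite strand. A Cct6a transcript matches Psph at 100% over 452 bases, and Cct6a held 40866 counts, against 2607 for Psph. The level of Psph is therefore uncertain. Gcat, which acts in threonine breakdown to glycine, has 2 identifiers with shared exons, and their sum was 79.6 and 86.6 CPM in NE libraries, against 80.3 and 68.3 CPM in vehicle libraries. Alas1, which uses glycine for heme, had 35.1 and 34.8 CPM in NE libraries, against 35.4 and 33.9 CPM in vehicle libraries.

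Glycine and serine transporters gave the one call outside the set. Of 7 tested, 1 was called lower, where 1.23% of all genes tested were. Values were negative for 6 of the 7, with a median log2 fold change of -0.21. Slc1a5, a neutral amino acid exchanger known best for glutamine that also carries serine, had 67.5 and 63.5 CPM in NE libraries, against 80.9 and 82.2 CPM in vehicle libraries. It fell by 0.32 ± 0.08 on the log2 scale (SE; 95% interval -0.48 to -0.16), with an edgeR adjusted p of 0.0459. Of 12 alternatives 7 kept this call. The edgeR adjusted p was 0.0820 with the length trend removed and 0.0501 with DESeq2 size factors. The log2 fold change was -0.36 without NE replicate 1 and -0.27 without NE replicate 2, and the call was lost in each.

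Slc38a2, the most abundant transporter of the list, had 409.6 and 395.2 CPM in NE libraries, against 456.6 and 496.0 CPM in vehicle libraries. The log2 fold change of Slc38a2 was -0.24 ± 0.07 (SE) with an edgeR adjusted p of 0.0787. Over 12 alternatives it ran from -0.30 without vehicle replicate 1 to -0.16 with the length trend removed. In the latter the edgeR adjusted p was 0.228. The mitochondrial serine carrier Sfxn1 had 137.8 and 147.2 CPM in NE libraries, against 143.0 and 137.7 CPM in vehicle libraries. Its relative Sfxn3 had 92.3 and 85.1 CPM in NE libraries, against 87.0 and 98.9 CPM in vehicle libraries. The groups overlapped for both.

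No gene of the folate lists was called. In the mitochondrial folate list 4 of 6 tested genes were positive, with a median log2 fold change of 0.06. Mthfd1l, the formate-releasing synthetase, had a log2 fold change of 0.08, Aldh1l2 one of 0.07, Mthfd2l one of 0.09 and the folate carrier Slc25a32 one of 0.04, each with an SE between 0.07 and 0.13. In the cytosolic list, which also holds purine synthesis genes such as Paics and Ppat, 9 of 13 were positive, with a median of 0.08. Tyms, thymidylate synthase, had 121.3 and 125.2 CPM in NE libraries, against 112.3 and 111.2 CPM in vehicle libraries, a log2 fold change of 0.14 ± 0.07 (SE).

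Paics, of purine synthesis, was the most abundant cytosolic gene of that list. It had 443.8 and 463.1 CPM in NE libraries, against 351.5 and 410.6 CPM in vehicle libraries. The log2 fold change of Paics was 0.25 with an edgeR adjusted p of 0.101. Over 12 alternatives it ran from 0.14 without vehicle replicate 1 to 0.37 without vehicle replicate 2. Paics exons overlap those of Ppat, another purine synthesis gene, on the opposite strand. Atic and Gart, also of purine synthesis, overlapped between groups, with log2 fold changes of 0.07 and 0.01. Both tested folate uptake genes were negative, Slc19a1 at -0.05 and Slc46a1 at -0.26 with an SE of 0.36.

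The methionine cycle list split evenly, with 4 positive and 4 negative of 8 tested and 0 called. Methionine synthase, Mtr, averaged 50.2 ± 0.154 CPM with NE and 54.2 ± 2.38 CPM with vehicle (SD, n = 2 each). Mat2a and Mat2b, which form S-adenosylmethionine, had log2 fold changes of -0.08 and 0.11, each with an SE of 0.07. Ahcyl1 overlapped between groups at a mean of 279.4 CPM over the 4 libraries. Ahcy, adenosylhomocysteinase, was listed at 5.77 and 6.94 CPM in NE libraries, against 5.91 and 6.44 CPM in vehicle libraries. This level is uncertain, since the annotated gene Gm4737 matches it at 99.7% over 2083 bases and held 21769 counts, against 401 for Ahcy. In transsulfuration, Cth had a log2 fold change of 0.03 ± 0.36 (SE), and Cbs, with 21 counts in all, did not pass the filter.

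Gcsh carries its lipoyl group in common with the E2 subunits of the large dehydrogenases, and in yeast the H protein is also needed to lipoylate them. Of 7 genes for lipoic acid synthesis and transfer, all tested, 0 were called, 6 were positive, and the median log2 fold change was 0.21. In 5 of the 7 both NE libraries lay above both vehicle libraries, against 24.6% of all genes tested. Over the 75 tested identifiers of all the lists, 23 lay above in this way and 11 below. Exons of Lias, Lipt1, Mcat, Oxsm and Ndufab1 overlap genes on the opposite strand. The longest transcripts of Mecr, Lipt1, Lipt2 and Mcat have 1337, 1485, 1663 and 1917 bases, against a median of 3470 over genes tested. Those of Lias, Ndufab1 and Oxsm have 2996, 3479 and 3759. Short transcripts tended to higher values in these libraries, and the part of length here was not tested. Lipt2, the octanoyltransferase that loads the H protein, had 8.78 and 7.81 CPM in NE libraries, against 5.85 and 6.11 CPM in vehicle libraries. The difference for Lipt2 was 0.47 ± 0.20 (SE) on the log2 scale with an edgeR adjusted p of 0.235. Mcat, of mitochondrial fatty acid synthesis, had 24.1 and 21.3 CPM in NE libraries, against 19.8 and 17.2 CPM in vehicle libraries. Lias, which inserts the sulfurs, had a log2 fold change of 0.10, Lipt1 one of 0.21 and Ndufab1, the acyl carrier protein, one of 0.11.

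The other lipoyl complexes had 0 of 9 called and a median of 0.10. Their most abundant genes were level between groups: Pdha1 at -0.01, Ogdh at 0.00 and Dlst at -0.00 on the log2 scale, each with an SE of 0.07. Atf4, a transcription factor known to induce serine synthesis genes when amino acids are short, had 501.0 and 498.1 CPM in NE libraries, against 467.9 and 459.2 CPM in vehicle libraries. For Atf4 the log2 fold change was 0.11 ± 0.06 (SE) with an edgeR adjusted p of 0.412. Of 15 identifiers tested in the list of Atf4 and stress genes, 0 were called, 6 were positive and 9 negative, with a median of -0.02. Asns, asparagine synthetase, had 265.9 and 299.9 CPM in NE libraries, against 248.2 and 252.4 CPM in vehicle libraries, and a log2 fold change of 0.18 ± 0.07 (SE). Others of the list lay the other way, of which Atf3 and Ddit3, both stress-induced transcription factors, are named after their values were seen. Atf3 had 6.22 and 4.10 CPM in NE libraries, against 7.39 and 8.46 CPM in vehicle libraries, with a log2 fold change of -0.63 ± 0.23 (SE) and an edgeR adjusted p of 0.174. Ddit3 had 12.9 and 15.1 CPM in NE libraries, against 17.2 and 18.8 CPM in vehicle libraries, with a log2 fold change of -0.36 ± 0.14 (SE) and an edgeR adjusted p of 0.189, and its exons overlap Mars on the opposite strand. Aldh18a1, of proline synthesis, overlapped between the groups.

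**Figure D5:**
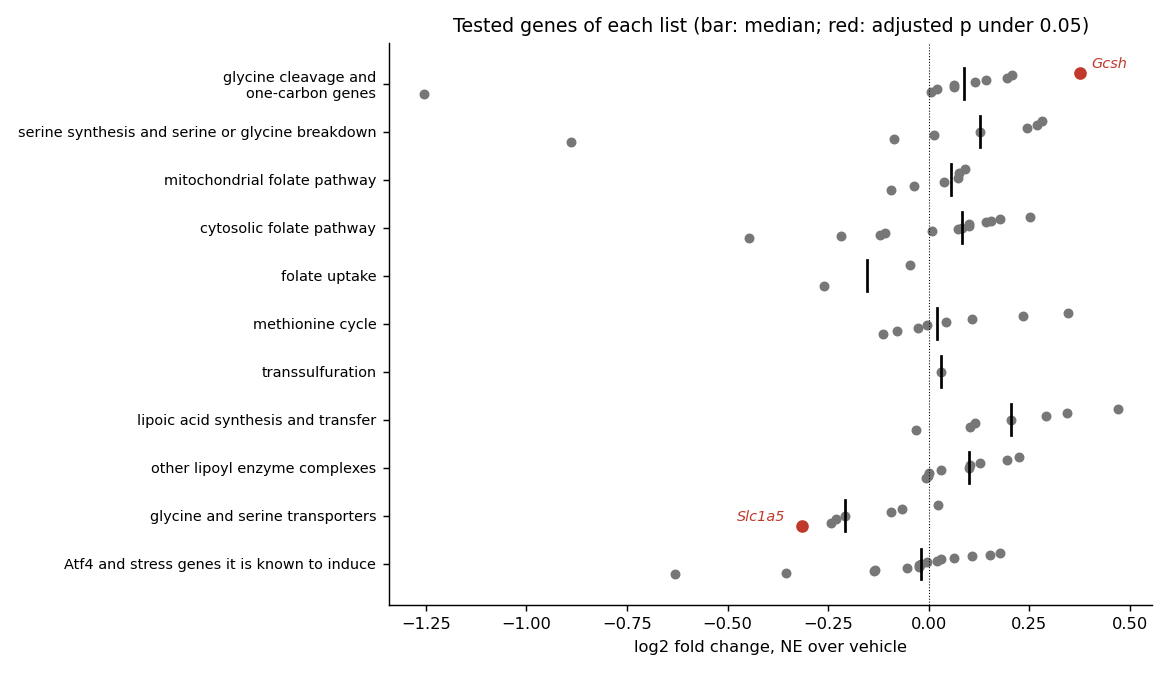
Log2 fold change, NE over vehicle (x axis), of each tested gene in the set of 10 (top row) and in 10 lists of linked pathways, with bars at list medians and genes called at an adjusted p under 0.05 in red. Medians run from -0.21 for the transporters to 0.21 for lipoic acid synthesis and transfer, and the called genes are Gcsh and Slc1a5.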

How the data were processed

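Counts were read from the deposited table. Per the labels, these are unnormalized counts of reads for each gene. GRCm39 (mm39) is the build named in the submitters' processing notes. For the aligner, counter, annotation and strand setting, nothing is stated (not given in the sources used here), so reads of overlapping genes on opposite strands cannot be told apart. Of 22063 identifiers, 7127 had 0 counts, and 30 without a symbol held 0.000742% of counts. Totals ran from 14783176 to 18491334 per library. In single libraries 3 counts, the most a count of 0 allows, equal 0.162 to 0.203 CPM, which covers counting error only.

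After filterByExpr (at least 10 counts, 15 in total) and TMM scaling, NE was tested against vehicle with edgeR 4.0.16 in R 4.3.3 (quasi-likelihood, group as the only term, Benjamini-Hochberg over 11419 genes, called under 0.05). SE is the absolute log2 fold change over the square root of F, and intervals are 95% and unadjusted. The 2 groups were taken from the titles. Transcript lengths and exon overlaps came from GENCODE M21, which is on GRCm38, by gene identifier, near-identical copies from a sequence search of its transcripts (at least 95% identity over 300 bases), and promoters from RefSeq (GRCm38.p6). The procedure was tested on simulated counts.

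The members, the lists and the rules were chosen with earlier results of these data known. The text names all members, every called gene of the other lists, the 3 most abundant of each, and a fixed set of enzymes and regulators. For likeness to Gcsh it takes the nearest 3 within 2-fold of its mean CPM. Cct6a, Smcr8, Ndufa4l2, Gm47525, Ppat and Gm4737 are named as overlapping genes or copies. Mmachc, Atf3, Ddit3, Mecr and Oxsm were named after their values were seen, and not every gene of the rule is reported here. Alternatives were DESeq2 1.42.0 size factors and Wald test, total counts, no filter, a stricter filter (10 counts in all libraries of 1 group, and 1 CPM on average), limma 3.58.1 voom, a replicate block, each library left out, and removal of each library's trend on length (spline with 3 degrees of freedom).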

Additional observations from a re-analysis of the deposited data

How the results depend on the processing

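Of the 10 genes, 1 was called, and 0 were with total counts, the DESeq2 Wald test or the length trend removed, and 0 to 1 with a library left out. For Gcsh the log2 fold change stayed between 0.29 and 0.47 over 12 alternatives, and 6 of them ended its call; adjusted p-values ran from 5.34e-04 to 0.533. Without vehicle replicate 1 the called gene was Phgdh. Of the other pathway genes 1 was called, against 0 with DESeq2 size factors, the DESeq2 Wald test or the length trend removed, and 0 to 4 with a library left out. The 4, without vehicle replicate 2, were Mmachc, Paics and Ppat higher and Slc1a5 lower. Fold changes near 0 changed sign: Shmt2 was -0.013 with total counts and ran from -0.038 to 0.050 with a library left out, Mthfd2 from -0.0083 to 0.13 and Gldc from -0.16 to 0.37. Over all genes, 39 were called higher and 140 lower. The split was 12 higher and 120 lower with total counts, 84 and 225 with no filter, 24 and 51 with DESeq2 Wald, 5 and 17 with the length trend removed, and 2 to 312 higher and 2 to 428 lower with a library left out. With 1 library left in a group, that library is assumed to vary like the others. The cause of these shifts was not tested. The replicate numbers showed no pairing (correlation of deviations -0.06 over 11419 genes). With the replicate block 84 were higher and 236 lower, and Gcsh had an adjusted p of 0.0177. Amt did not pass the stricter filter, and DESeq2 gave 3764 genes, Gldc and Amt among them, no adjusted p. Depth limits Gldc and Amt, with 69 and 59 counts in all.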
